A study of Mus musculus with 22 samples.

Results

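The smooth muscle actin and contractile genes comprised 10 genes, Acta2, Actg2, Tagln, Cnn1, Myl9, Tpm1, Tpm2, Vcl, Flna and Srf, taken as every probe whose accession maps to 1 of these symbols. They were represented by 17 probes of the 55681 on the array, and by 10 of the 20014 named genes. Tpm1 had 5 probes, Tpm2, Vcl and Srf had 2 each, and the other members had 1. Expression was measured in FE1 cells, an immortal lung epithelial line of the transgenic Muta(TM)Mouse, after 24 h without particles (Control, 5 arrays) or with the multiwalled carbon nanotube Mitsui7 at 12.5 µg/ml (D1, low dose, 6 arrays), 25 µg/ml (D2, medium dose, 5 arrays) or 100 µg/ml (D3, high dose, 6 arrays). All groups were the same line in the same serum-containing medium with epidermal growth factor, and no genotype differed between them. On each of the 22 arrays the Cy5 signal of the sample was read against the Cy3 signal of Universal Mouse Reference RNA, a pool from mouse cell lines, so a level below is a log2 ratio of sample to reference, and a change is a difference of such ratios between groups.

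Smooth muscle alpha actin, encoded by Acta2, is the actin of contractile smooth muscle and of myofibroblasts, and it is also found in cultured epithelial cells under tension or undergoing mesenchymal change. The contractile genes are regulated together in many cells by serum response factor, the product of Srf, which binds a DNA element called the CArG box (CC, then A or T at each of the 6 central letters, then GG) with the help of cofactors of the myocardin family that respond to the pool of free actin. Actin filaments pull when myosin slides along them, and tropomyosin, calponin and transgelin sit on the filament, while vinculin and filamin tie it to adhesions and to other filaments.

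The sequence just before the start of the gene is shown for Srf and for Acta2, the gene that gives the set its name. Srf was the only member whose brightest probe passed the FDR adjusted test at every dose, at under 1.5-fold. Both are shown because the CArG box is the element through which they are known to respond to serum response factor. The sequences are from RefSeq, mouse build GRCm38.p6, 250 bases long and ending just before the start of the gene. They are printed 5′ to 3′ on the strand of the gene. Capitals mark a CArG box with at most 1 mismatch among its 6 central letters.
Srf, chr17:46556163-46556412, minus strand: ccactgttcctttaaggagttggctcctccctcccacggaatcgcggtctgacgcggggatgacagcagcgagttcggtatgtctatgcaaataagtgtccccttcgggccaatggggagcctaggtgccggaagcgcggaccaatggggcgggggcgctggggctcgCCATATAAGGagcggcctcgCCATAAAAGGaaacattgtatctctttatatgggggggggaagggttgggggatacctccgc
Acta2, chr19:34255374-34255623, minus strand: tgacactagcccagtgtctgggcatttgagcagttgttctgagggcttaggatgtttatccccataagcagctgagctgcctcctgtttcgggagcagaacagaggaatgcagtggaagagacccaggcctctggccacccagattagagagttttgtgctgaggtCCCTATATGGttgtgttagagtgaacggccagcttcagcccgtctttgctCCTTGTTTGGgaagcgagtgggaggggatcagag
Srf held 2 exact boxes, 82 and 62 bases before the start, and Acta2 held 2 boxes with 1 mismatch each, 84 and 34 bases before it. Myl9 and Vcl also held boxes, and these are shown with 10 bases on either side.
Myl9, exact, chr2:156775293-156775322, plus strand: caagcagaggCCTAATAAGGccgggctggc
Myl9, 1 mismatch, chr2:156775355-156775384, plus strand: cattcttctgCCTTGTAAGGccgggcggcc
Vcl, exact, chr14:20929161-20929190, plus strand: cccactatgcCCTTATAAGGagcgccccgc
Of the 8 members with an entry among the promoter sequences, 3 held an exact box (Srf, Myl9 and Vcl) and 4 a box with at most 1 mismatch, against 1.47% and 8.59% of the 32851 promoters of the same length. The box pattern is its own reverse complement, so 1 scan covered both strands. Cnn1, Tpm1, Tpm2 and Flna had no match in this window, and Actg2 and Tagln had no entry. A match is a run of letters and was not measured as a binding site here.

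All 10 members were detected in every group, and no probe was saturated. By the brightest probe of each gene, 0 of 10 members were called at any dose, where a call required an FDR adjusted p of at most 0.05, at least a 1.5-fold change and detection in 4 or more arrays of either group. Over all detected named genes 5.18% were called at the low dose, 8.87% at the medium dose and 11.8% at the high dose. Without the fold requirement 1 member passed at the low dose, 1 at the medium dose and 2 at the high dose, against 9.6%, 14.7% and 20.6% of detected named genes. Those were Srf, which was higher at each dose, and Tpm2, which was lower at the high dose, where 4.51%, 7.15% and 9.93% of detected named genes were higher by this rule and 10.7% were lower at the high dose. An unadjusted p under 0.05 was reached by 4, 3 and 5 members, where 27.5%, 32.8% and 36.1% of detected named genes reached it. The median change of the members was -0.06 at the low dose, -0.10 at the medium dose and -0.23 at the high dose on the log2 scale, beside medians of -3.2e-05, 0.0014 and 0.009 over all detected named genes.

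**Figure D1:**
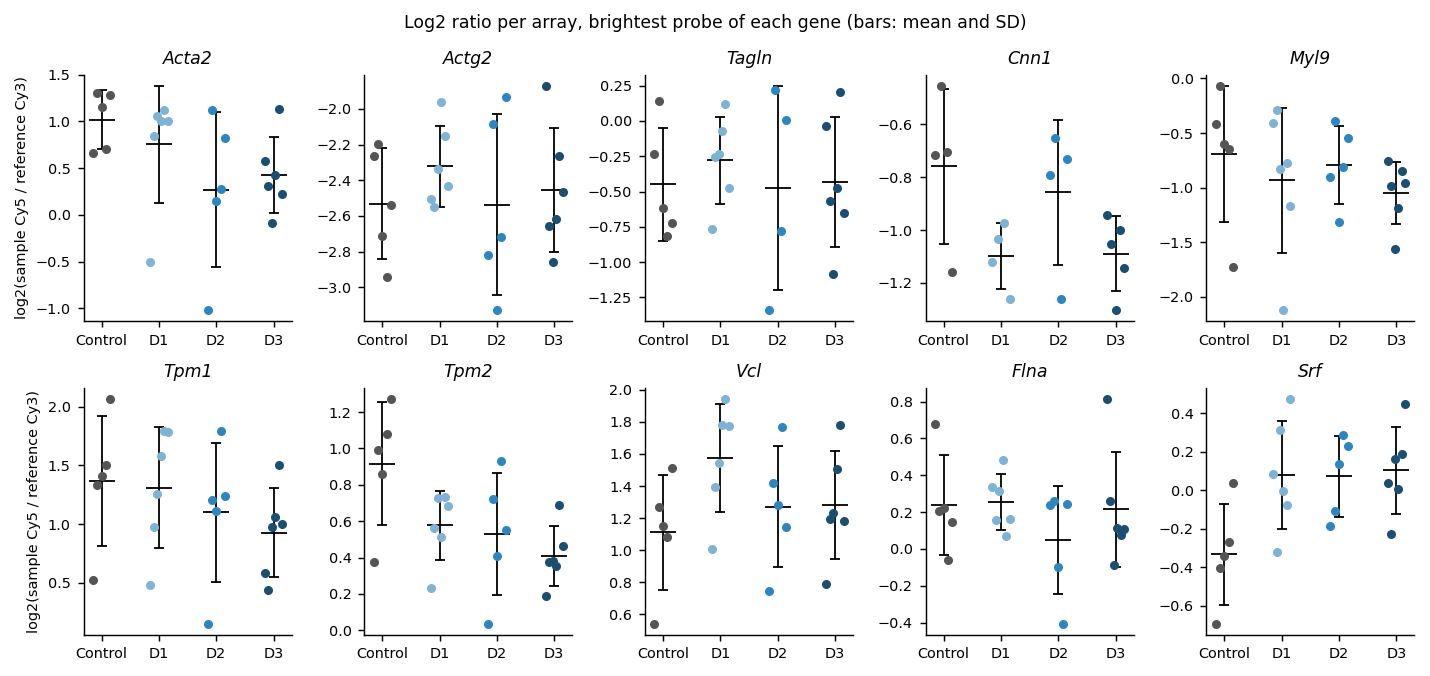
Log2 ratio of sample Cy5 to reference Cy3 on each array for the brightest probe of each of the 10 genes, by group, with the mean and SD as black bars and an axis of its own for each gene. The Srf points of D1, D2 and D3 lie mostly above those of Control, the Tpm2 points lie mostly below, and Acta2 spreads from -1.02 to 1.13 within D2 alone.

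**Figure D2:**
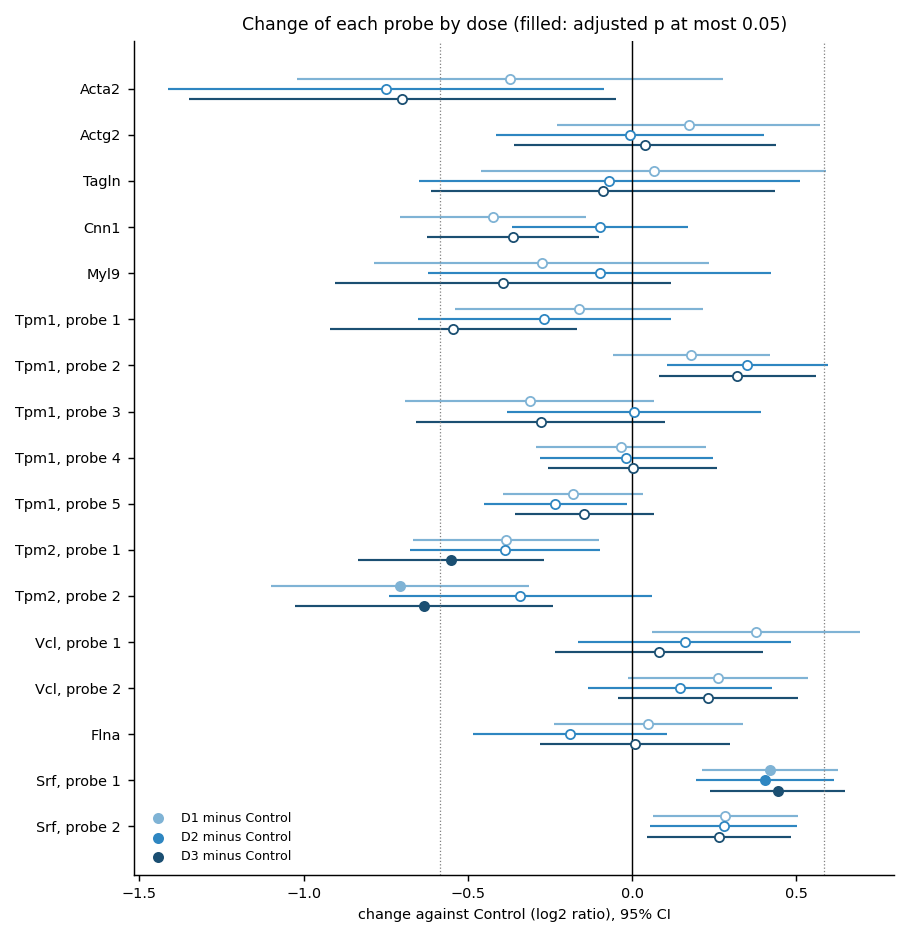
Change of each of the 17 probes against Control at each dose on the log2 scale, with 95% confidence intervals, filled where the adjusted p was at most 0.05 and with dotted lines at 1.5-fold. Probe 1 is the brightest of its gene, and the Srf and Tpm2 probes carry the only filled points.

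Of the 17 exposed arrays 5 resembled another exposed group more than their own. After subtraction of the Control mean, the profile of D1 replicate 1 over detected probes correlated at 0.832 with the mean of D2 and at 0.616 with the remaining D1 arrays, and that of D2 replicate 2 correlated at 0.736 with the mean of D1 and at 0.602 with the remaining D2 arrays. The margins were smaller for D2 replicate 1 (0.753 with D3, 0.727 with D2), D2 replicate 5 (0.826 with D3, 0.798 with D2) and D3 replicate 6 (0.88 with D2, 0.835 with D3). These correlations share the same Control arrays and are given as a description. Results that turn on D1 replicate 1 or D2 replicate 2 are given below with and without them.

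Acta2 was fitted as lower at each dose, and none of the 3 decreases passed the adjusted test. The log2 ratio was 0.66, 1.30, 1.15, 0.70 and 1.28 on the 5 Control arrays. In D1 it ran from -0.51 to 1.13 with a median of 1.00, in D2 it was -1.02, 1.13, 0.15, 0.27 and 0.83, and in D3 it ran from -0.09 to 1.13 with a median of 0.37. The groups overlapped at every dose, although 5 of 6 arrays of D3 lay below every Control array. The fitted change was -0.37 ± 0.31 (SE) at the low dose, -0.75 ± 0.32 at the medium dose and -0.70 ± 0.31 at the high dose, with adjusted p of 0.680, 0.240 and 0.229. The 95% confidence interval ran from -1.02 to 0.28 at the low dose, from -1.41 to -0.09 at the medium dose and from -1.35 to -0.05 at the high dose.

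The Acta2 changes at the low and the medium dose moved with single arrays. Leaving out 1 array kept the high dose change between -0.82 and -0.58, and none of these passed the adjusted test. On the same slide, exposed arrays were below Control on 3 of 4 slides at the low dose and on 4 of 4 at the medium and the high dose. Without D1 replicate 1, whose ratio of -0.51 was far below the 0.84 to 1.13 of the other D1 arrays, the low dose change was -0.12 (adjusted p = 0.912). Without D2 replicate 1, whose ratio was -1.02, the medium dose change was -0.43 (adjusted p = 0.583). Without D2 replicate 2, whose ratio was 1.13, the medium dose change was -1.03 with an adjusted p of 0.0437, and without both arrays it was -1.0 with an adjusted p of 0.0195, so that Acta2 then met the call. With the sample number in place of the slide as the block the adjusted p at the medium dose was 0.0759. When the fit held only D3 and Control, the high dose change was -0.73 with an adjusted p of 0.0228.

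Actg2, which encodes the gamma actin of enteric smooth muscle, was low against the reference in all groups. Its ratio averaged -2.53 ± 0.31 (SD, n = 5) in Control, -2.32 ± 0.23 (n = 6) in D1, -2.54 ± 0.51 (n = 5) in D2 and -2.46 ± 0.35 (n = 6) in D3, and the groups overlapped. The changes of 0.17, -0.01 and 0.04 had adjusted p of 0.782, 0.996 and 0.965. The interval at the high dose, from -0.36 to 0.44, leaves a change of that size in either direction undetectable with this number of arrays. The actins are close to each other in coding sequence, and how well single probes tell them apart was not tested.

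Tagln encodes transgelin (SM22), an actin-binding protein and an early marker of smooth muscle differentiation, and it did not pass the test at any dose. Its ratio was -0.23, 0.14, -0.61, -0.82 and -0.73 in Control, ran from -0.76 to 0.12 in D1 and from -1.08 to 0.21 in D3, and was -1.34, 0.22, -0.78 and 0.01 on the 4 arrays of D2 that measured it. The groups overlapped throughout, and the changes of 0.07, -0.07 and -0.09 had standard errors of 0.25, 0.28 and 0.25 and adjusted p of 0.948, 0.957 and 0.934.

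Cnn1 encodes calponin, a filament protein of differentiated smooth muscle that slows the myosin cycle. Its spot was marked as an outlier on all 4 arrays of slide 2 and on 1 further D1 array, leaving 4 arrays of Control, 4 of D1, 4 of D2 and 5 of D3. The ratio was -0.72, -0.45, -0.70 and -1.16 in Control, -1.12, -1.03, -0.97 and -1.26 in D1, -0.79, -0.65, -1.26 and -0.73 in D2, and between -1.30 and -0.94 in D3. As measured, the D1 and D3 arrays were low beside 3 of the Control arrays and overlapped the remaining array, Control replicate 5. After removal of the fitted slide differences, 4 of 4 D1 and 4 of 5 D3 arrays lay below every Control array. At the low dose 6.11% of detected named genes were lower with no overlap. Replicate 5 of D1 and of D3 was on slide 5, without a Control array, and is not separate evidence. Cnn1 had the weakest signal of the members, with a mean Cy5 of 236.7. The change was -0.42 ± 0.13 (SE) at the low dose, -0.10 ± 0.13 at the medium dose and -0.36 ± 0.12 at the high dose, with adjusted p of 0.111, 0.825 and 0.0927. Without Control replicate 5 the adjusted p was 0.0167 at the low dose, for a change of -0.58, and 0.0115 at the high dose, for a change of -0.50. With normexp background correction the adjusted p was 0.0101 at the low and 0.00982 at the high dose, and without slide 4 it was 0.0273 at the high dose.

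Myl9 encodes the regulatory light chain of smooth muscle myosin, the subunit that is phosphorylated to start contraction. Its ratio was -0.42, -0.07, -0.60, -0.65 and -1.73 in Control, ran from -2.12 to -0.29 with a median of -0.80 in D1, was -0.91, -0.39, -1.31, -0.81 and -0.54 in D2, and ran from -1.56 to -0.76 with a median of -0.97 in D3. Control replicate 5 and D1 replicate 4 were the lowest arrays of their groups, and the groups overlapped. The changes of -0.28, -0.10 and -0.39 had standard errors of 0.24, 0.25 and 0.24 and adjusted p of 0.705, 0.926 and 0.473. The Myl9 values moved with single arrays. At the low dose the change was -0.02 without D1 replicate 4, -0.16 without Control replicate 4, -0.18 without Control replicate 3 and -0.55 without Control replicate 5. Without Control replicate 5 it was -0.37 at the medium and -0.67 at the high dose, with adjusted p of 0.491 and 0.0708.

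The tropomyosins, coiled-coil proteins that lie along the filament and set which myosins can bind it, had the lowest adjusted p among the decreases of the members at the high dose. The brightest Tpm2 probe read 0.38, 0.99, 0.86, 1.08 and 1.27 in Control, from 0.23 to 0.73 with a median of 0.62 in D1, 0.04, 0.72, 0.41, 0.93 and 0.55 in D2, and from 0.19 to 0.69 with a median of 0.38 in D3. Of the Control arrays 4 lay above every D1 and D3 array, and Control replicate 1, at 0.38, overlapped them. Tpm2 fell by 0.55 ± 0.14 (SE) at the high dose, which is 1.47-fold and so just under the fold required for a call, with an adjusted p of 0.0117. The changes at the low and medium dose were -0.38 ± 0.14 and -0.39 ± 0.14, with adjusted p of 0.153 and 0.133. Exposed arrays were below Control on the same slide on 4 of 4 slides at each dose, by between 0.40 and 0.81 at the high dose. When the sample number, which the labels do not give as a pairing, was the block and slide was left out, the low and medium dose changes of Tpm2 passed the adjusted test (adjusted p = 0.0463 and 0.0254). So they did without Control replicate 1 (0.0468 and 0.0361), and at the medium dose also without D2 replicate 2 (0.0448). The high dose change reached 1.5-fold without Control replicate 1 or D3 replicate 2.

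The second Tpm2 probe, which matches the same transcript, was called at both ends of the dose range. It averaged 0.69 ± 0.17 (SD, n = 5) in Control, 0.13 ± 0.48 (n = 6) in D1, 0.34 ± 0.22 (n = 5) in D2 and 0.21 ± 0.65 (n = 6) in D3. Its change was -0.71 ± 0.19 (SE; adjusted p = 0.0403) at the low dose, -0.34 ± 0.19 (adjusted p = 0.447) at the medium dose and -0.63 ± 0.19 (adjusted p = 0.0400) at the high dose. Over all detected probes 3.26%, 5.61% and 7.55% were called at the 3 doses. In D3 the ratios of this probe ran from -0.73 in replicate 3 to 1.32 in replicate 5, and it was not refitted without single arrays. Replicate 5 was on slide 5, which held no Control array, and its value after removal of the fitted slide differences was 0.47. D1 replicate 5, also on slide 5, read 0.57, the highest of D1, and -0.27 after the same removal. The low and the high dose calls of this probe therefore rest in part on that adjustment. Counting a gene as called when any of its probes was, Tpm2 was the only member called, at the low and the high dose.

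Tpm1 is spliced into many isoforms, and its 5 probes, annotated to 4 different transcripts, did not move alike. The brightest probe read 0.52, 1.33, 1.41, 1.51 and 2.06 in Control, from 0.48 to 1.79 in D1, 0.15, 1.21, 1.11, 1.80 and 1.24 in D2 and from 0.44 to 1.5 in D3, and the groups overlapped. Its change was -0.16 ± 0.18 (SE), -0.27 ± 0.18 and -0.54 ± 0.18 from the low to the high dose, with adjusted p of 0.781, 0.578 and 0.0720, and it was below Control on 4 of 4 slides at the high dose. In the replicate block the high dose change of Tpm1 was -0.49 with an adjusted p of 0.0317. Without Control replicate 1, D2 replicate 1 or D2 replicate 2 the adjusted p of the high dose was 0.0272, 0.0408 and 0.0430.

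The second Tpm1 probe had changes of opposite sign, 0.18 ± 0.11 (SE), 0.35 ± 0.12 and 0.32 ± 0.11, with adjusted p of 0.551, 0.0978 and 0.105. The remaining 3 probes had changes between -0.31 and 0.01 and adjusted p of at least 0.272. No probe of Tpm1 passed the adjusted test, and the difference between probes was not tested.

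Vcl and Flna encode linkers of the actin network, vinculin at focal and cell-cell adhesions and filamin A at filament crossings. The brightest Vcl probe read 0.54, 1.27, 1.15, 1.08 and 1.51 in Control, from 1.01 to 1.94 with a median of 1.66 in D1, 0.75, 1.42, 1.28, 1.77 and 1.15 in D2, and from 0.79 to 1.78 with a median of 1.21 in D3. In D1, 4 of 6 arrays lay above every Control array, while D2 and D3 overlapped Control more fully. The change of Vcl was 0.38 ± 0.15 (SE; adjusted p = 0.240) at the low dose, 0.16 ± 0.15 (adjusted p = 0.745) at the medium dose and 0.08 ± 0.15 (adjusted p = 0.889) at the high dose, and at the low dose it was above Control on 4 of 4 slides. In the replicate block the low dose change was 0.45 with an adjusted p of 0.0254.

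Flna averaged 0.24 ± 0.27 (SD, n = 5) in Control, 0.25 ± 0.15 (n = 6) in D1, 0.05 ± 0.29 (n = 5) in D2 and 0.21 ± 0.31 (n = 6) in D3. The changes of 0.05, -0.19 and 0.01 were within their intervals of 0, which ran from -0.28 to 0.30 at the high dose. The second Vcl probe had changes of 0.26, 0.14 and 0.23, and none passed (adjusted p = 0.396, 0.729 and 0.409).

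Srf, the transcription factor, rose at every dose by a similar amount. Its ratio was -0.69, -0.41, -0.34, -0.27 and 0.04 in Control, ran from -0.32 to 0.47 with a median of 0.04 in D1, was -0.19, -0.11, 0.14, 0.28 and 0.23 in D2, and ran from -0.23 to 0.45 with a median of 0.10 in D3. As measured, Control replicate 5 overlapped the exposed arrays. After removal of the fitted slide differences, 6 of 6 D1 arrays, 5 of 5 D2 arrays and 6 of 6 D3 arrays lay above every Control array, where 5.52%, 8.09% and 9.96% of detected named genes were higher with no overlap. Slide 5 held no Control array, so the adjusted values of D1 replicate 5 and D3 replicate 5 rest on the fitted dose changes. Those arrays are not separate evidence in these counts, and the shares over all genes carry the same limit. The change was 0.42 ± 0.10 (SE) at the low dose, 0.41 ± 0.10 at the medium dose and 0.44 ± 0.10 at the high dose, which is 1.34-, 1.32- and 1.36-fold, with adjusted p of 0.0179, 0.0188 and 0.00542.

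Srf was higher than Control on the same slide on 4 of 4 slides at each dose. The fold was below 1.5 at each dose, so Srf was not called, and the second Srf probe had changes of 0.28, 0.28 and 0.26 with adjusted p of 0.185, 0.180 and 0.162. Leaving out 1 array ended the low dose result for Control replicate 1 (adjusted p = 0.0576), Control replicate 3 (0.0746), D1 replicate 1 (0.0552), D1 replicate 3 (0.0616) and D1 replicate 6 (0.0514). It ended the medium dose result for Control replicate 1 (adjusted p = 0.0564), Control replicate 3 (0.0717) and D2 replicate 4 (0.0758), and no single array ended the high dose result. In the replicate block the low dose change was 0.34 with an adjusted p of 0.0657, and without D1 replicate 1 and D2 replicate 2 together it was 0.37 with an adjusted p of 0.0678. With median centring in place of loess no dose passed, with adjusted p of 0.657, 0.562 and 0.593 for changes of 0.29, 0.50 and 0.42.

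**Figure D3:**
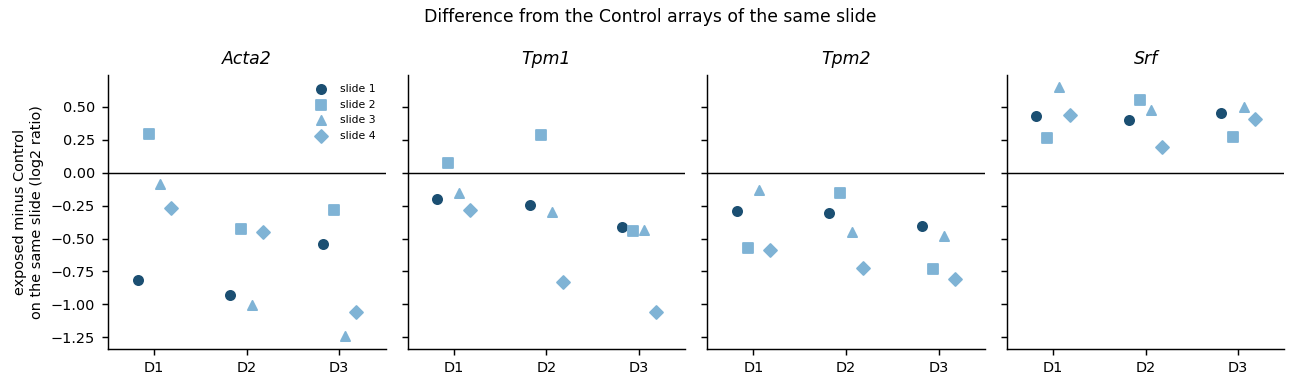
Difference of the exposed arrays from the Control arrays of the same slide on the log2 scale for Acta2, Tpm1, Tpm2 and Srf at each dose, with slide 1 as the mean of 2 arrays per group and slides 2, 3 and 4 as 1 array per group. All 12 Srf points lie above 0 and all 12 Tpm2 points below 0, whereas the Acta2 points run from -1.24 to 0.30.

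The doses were also compared with each other. No member was called between D2 and D1, D3 and D2 or D3 and D1, where 0%, 0% and 0.429% of detected named genes were called by limma. An unadjusted p under 0.05 was reached by Cnn1 between D2 and D1 (change 0.33, adjusted p = 0.868), by Cnn1 between D3 and D2 (-0.26, adjusted p = 1.00) and by Tpm1 between D3 and D1 (-0.38, adjusted p = 0.546). For Srf the difference of D3 from D1 was 0.02, with an interval from -0.17 to 0.22. Over detected named genes 8.52%, 5.43% and 14.7% reached an unadjusted p under 0.05 in these 3 comparisons.

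Related genes were read from the same fit in 3 lists, against the same shares of called genes. Of 17 other smooth muscle genes 9 were detected at the low dose and 10 at the medium and high dose. Called were 1 gene at the low dose, 1 at the medium dose and 2 at the high dose, and the median change was -0.0025, 0.012 and 0.064. Mylk, the kinase that phosphorylates the myosin light chain, fell at every dose, from a mean ratio of 1.24 ± 0.38 (SD, n = 5) in Control to 0.56 ± 0.33 (n = 6) in D1, 0.33 ± 0.36 (n = 5) in D2 and -0.04 ± 0.40 (n = 6) in D3. Its change was -0.68 (adjusted p = 0.0108), -0.92 (0.000638) and -1.28 (7.06e-06), and the low dose call was lost without Control replicate 3 (adjusted p = 0.0600). Pdlim7, a PDZ and LIM scaffold on actin, rose by 0.62 at the high dose, or by 0.54, 0.55 and 0.55, under the fold of a call, without Control replicate 5, D3 replicate 2 or D3 replicate 4.

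A second list held 22 relatives of the members, most of them non-muscle genes, with Acta1, Actc1 and Flnc as muscle genes among them. All were detected, and 1 was called at the low dose, 3 at the medium dose and 6 at the high dose, and all but Zyx were lower. Myl12b, a regulatory light chain of non-muscle myosin, fell by 0.83, 0.84 and 0.94 from the low to the high dose. Myh10, a non-muscle myosin heavy chain, fell by 0.60 at the medium and by 0.67 at the high dose, with the medium change at -0.49, -0.52 and -0.58 without Control replicate 1, D2 replicate 2 or D2 replicate 3, and the high at -0.57 without Control replicate 1, each under the fold of a call. At the high dose talin (Tln1) fell by 0.73, the skeletal actin gene Acta1 fell by 1.01 and the light chain gene Myl6b fell by 0.74. Acta1 lost its call without Control replicate 2 (adjusted p = 0.0602), and Myl6b without Control replicate 5 (0.0539) or D3 replicate 3 (0.0507). Zyx, which encodes the adhesion protein zyxin, rose by 0.59 at the medium dose and by 0.88 at the high dose, and its medium dose change was 0.53 to 0.57, under the fold of a call, without Control replicate 1, Control replicate 5, D2 replicate 2 or D2 replicate 5. The median change of this list was -0.06, -0.08 and -0.06.

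Of 14 SRF cofactors and regulators 11 were detected at the low and medium dose and 12 at the high dose, with 3, 3 and 4 called. Hopx, a homeodomain protein that restrains serum response factor, fell by 1.55 at the low dose, by 1.62 at the medium dose and fell by 2.19 at the high dose. Fhl2, a LIM cofactor whose gene is a target of the same factor, rose by 1.04, 1.19 and 1.2, and Klf4, a zinc finger factor known to repress smooth muscle genes, rose by 0.99, 1.32 and 1.42. Vgll3, a cofactor of TEAD factors, rose by 1.04 at the high dose. The cofactor gene Mrtfa had changes of -0.16, 0.00215 and -0.11 and did not pass the test. The list median was 0.08, 0.03 and 0.01, as members that rose stood beside members with lower values. Over the 3 lists 5, 7 and 12 different genes were called, and of the 4 other detected probes of the 12 genes 4 had the same sign at the high dose and 1, for Hopx, was called.

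**Figure D4:**
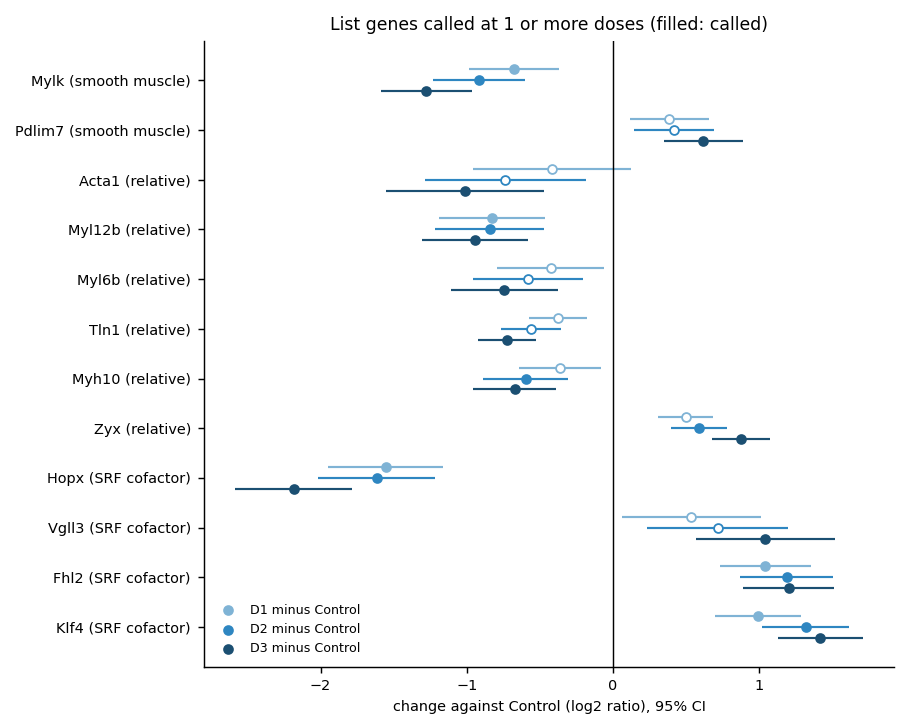
Change against Control on the log2 scale with 95% confidence intervals at each dose for the genes of the 3 lists that were called at 1 or more doses, filled where called. Hopx reaches -2.19 and Mylk -1.28 at the high dose, and Klf4, Fhl2 and Vgll3 lie above 1 there.

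Markers of the cells were read in the same arrays. Of 10 epithelial markers, Krt7 and Krt18 were well above background on all 5 Control arrays. Krt8, Krt19, Cldn7 and Esrp1 were so on 4 of them and Cldn4 on 3, whereas Cdh1, Epcam and Ocln were so on none. Krt7 fell by 0.79 at the medium dose and by 0.85 at the high dose, and no other epithelial marker was called. Of 8 markers of mature smooth muscle Smtn alone was well above background on all Control arrays, and Myh11, Des, Lmod1, Myocd and Kcnmb1 were so on none. Of 9 fibroblast markers 8 were well above background on all Control arrays, the exception being Lum, and 5, 6 and 6 of them were called lower at the 3 doses, against 3.01%, 4.64% and 6.4% of detected named genes. Ratios to reference were also summed over each list, with markers that were not detected left in. The sum of the ratios to reference over the fibroblast markers ran from 9.42 to 12.6 in Control, from 5.1 to 9.41 in D1, from 5.04 to 5.83 in D2 and from 3.5 to 5.99 in D3. The same sum over the epithelial markers ran from 4.6 to 6.15 in Control, from 4.36 to 5.79 in D1, from 4.5 to 5.16 in D2 and from 4.13 to 4.96 in D3. Over the mature smooth muscle markers it ran from 5.27 to 7.57 in Control, from 5.07 to 7.82 in D1, from 5.2 to 7.88 in D2 and from 6.18 to 7.73 in D3. Of these markers Lmod1 and Myocd were detected on 0 arrays, Kcnmb1 on 1, Myh11 on 2 and Des on 5. The smooth muscle sum is therefore not a level of the list. Nor is the epithelial sum, as Cdh1 was detected on 0 arrays and Ocln on 5, at mean log2 ratios of -0.32 and -0.09 in Control. Krt18, Krt19 and Krt8, detected on 22, 21 and 22 arrays, were at -5.62, -4.91 and -4.35 and add little to it. Over 6 striated muscle markers the sum ran from 6.65 to 9.72 in Control, from 11.2 to 15.3 in D1, from 7.65 to 14.3 in D2 and from 9.24 to 15.3 in D3. Of these 6, Tnnt2, the cardiac troponin T gene, was called higher at every dose (1.08, 0.81 and 0.77), against 2.17%, 4.23% and 5.44% of detected named genes, and Acta1 was called lower at the high dose, while Myog, Ttn and Ckm were well above background on no Control array. The endothelial marker Kdr and the leukocyte markers Cd3e and Itgam were well above background on all Control arrays, and no pericyte marker was. No pericyte, endothelial or leukocyte marker was called at any dose. At the high dose 1 pericyte marker passed the adjusted test with a change of -0.583, just under the fold of a call. The fibroblast sum was lower in the exposed groups, as the levels of Tpm2 and Mylk were. Collagen genes weigh most in that sum. The mean log2 ratio in Control was 1.766 for Col1a1, 1.265 for Col1a2 and 1.11 for Col3a1, and below 0 for every other fibroblast marker. The fibroblast sum is therefore mainly a level of these collagen genes. The striated muscle sum was higher in D1 than in Control, where Tnnt2 was the only marker of that list called. That sum therefore does not describe the striated muscle markers as a set. The part of either sum in the results was not tested. Fewer cells of a kind and less RNA per cell cannot be told apart in such bulk samples.

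Genes with a pattern most like that of Acta2 were listed by the root mean square difference of slide-adjusted, centred log2 ratios over the 22 arrays, among 17670 probes with a symbol. They were Lrp1, a large lipoprotein receptor (0.175), Cdc42ep5, a Cdc42 effector (0.188), Macroh2a1, a histone variant (0.210), Cacnb3, a calcium channel subunit (0.223), and Ccnd3, a cyclin (0.226), beside a spread of 0.548 for Acta2 itself. Among the members the nearest was Tagln at 0.334 on 21 arrays, followed by Tpm1 at 0.371, Tpm2 at 0.410 and Actg2 at 0.461, and Srf was the farthest at 0.665. These values are a description over arrays that share slides and a reference.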

How the data were processed

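The labels of the 22 arrays gave group and sample number; exposures were made in 3 separate experiments per the methods, so arrays of a group can share an experiment, which array came from which is not given, and p-values measure the spread between these arrays, not between 5 or 6 independent experiments. Samples were always in Cy5, and a constant dye bias cancels in differences between groups. The deposited scanner files hold median spot intensity in Cy5 (sample) and Cy3 (reference); per the file headers they were made with Feature Extraction 10.7.3.1. They also hold a log10 ratio by the scanner software, exactly 0 for 25.9% of values. The authors also deposited processed log2 ratios in a series matrix, of unstated normalization. Both served as alternatives; each matrix column correlated best with its own array (median 0.985, lowest 0.84).

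Control spots were left out, spots marked non-uniform or population outliers (0.401% to 6.22% per array) became missing values, and log2(Cy5/Cy3) without background subtraction was normalised by loess (span 0.3) within each array. Spots of 1 probe were combined by the median, and a gene was read by its brightest probe. A probe was detected when Cy5 exceeded the 5% trimmed mean plus 3 SDs of 308 negative control spots, as 23688 to 39139 probes did on an array; precision is limited by how many arrays a group has. Accessions were matched to RefSeq symbols for 26407 of 55681 probes. Group and slide (5 slides) were fitted over all 22 arrays with limma 3.58.1 in R 4.3.3, with Benjamini-Hochberg adjustment over all probes; limma replaced the shrinkage test of the methods, and the fit was tested on simulated data. The text names the 10 members, genes of 3 pathway lists called at any dose or named as not called (a further list and 1 gene are not reported here), and the 5 genes most like Acta2. Members and lists were chosen with earlier results of these data known. Arrays of the same sample number were treated as possible pairs: all 31 same-number pairs had deviations correlated above 0.1 (0.187 to 0.819), 27 of them on the same slide. Arrays of different numbers were not compared, and the labels do not say what the numbers pair. The same-number pairs on different slides, all of sample number 5, correlated at 0.270, 0.484, 0.413 and 0.491. What a shared slide and a shared sample number each contribute was not tested. Alternatives covered background, normalization, source of the ratio, marked spots, slide and replicate terms, filters, thresholds, probes, and leaving out arrays or slides.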

Additional observations from a re-analysis of the deposited data

Results flagged for a closer look

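Acta2 in D1 replicate 1 had a log2 ratio of -0.51, far below the other D1 arrays, which lay between 0.84 and 1.13; the gap was 0.826 of the range of the group. It was the only such array among 40 combinations of member and group tested, and chance marks about 1 in 20.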

How the results depend on the processing

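Srf was higher under all 40 tested alternatives at each dose but lost the adjusted test in 16 at the low dose, 11 at the medium dose and 4 at the high dose, among them median centring in place of loess (adjusted p = 0.657, 0.562 and 0.593), no slide term (0.213, 0.229 and 0.0985) and no slide 1 (0.149, 0.147 and 0.0731). Tpm2 was lower under all 40 and lost the high dose result in 5, with median centring (0.158), no slide term (0.0571), without slide 2 (0.0524), without slide 4 (0.0754) and within slide 1 (0.897). The 40 were not separate tests of direction. Leaving out D1 replicate 5, D3 replicate 5 or slide 5 gave the same fit. Some alternatives could not move a fitted change, as for both genes at the medium dose when a D1 array was left out.

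The count of members called, 0 in the report, was 1 (Acta2) at the high dose with only the 2 groups compared, and with no fold threshold 1, 1 and 2 at the 3 doses (Srf, with Tpm2 at the high dose). Counting any probe it was 1 at the low and the high dose (Tpm2), without slide 1 it was 1 at the high dose (Tpm2), and without D1 replicate 1 and D2 replicate 2 together it was 1 at the medium dose (Acta2). Leaving out 1 array gave 0 to 1 at the medium dose (1 without D2 replicate 2, Acta2) and 0 to 2 at the high dose (2 without Control replicate 1, Tpm1 and Tpm2; 1 without D3 replicate 2, Tpm2). The count of list genes called, 5, 7 and 12, was 2, 4 and 6 with median centring, 2, 3 and 6 with a fold threshold of 2, 8 at the low dose with no fold threshold, 3 at the low dose with only the 2 groups compared or without slide 3, and 0, 0 and 1 within slide 1. The median change of the members was -0.21 at the low dose with median centring, -0.11 at the high dose with the mean of all probes, 0.020 at the medium dose without slide 1 and -0.27 without slide 4, and -0.24, -0.24 and -0.33 within slide 1; leaving out 1 array gave -0.23 to -0.022 at the medium dose, the lowest without D2 replicate 5.

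Changes near 0 turned sign under some alternatives, and none of these passed the adjusted test in the report. With median centring the change was -0.080 for Tagln and -0.11 for Flna at the low dose, and 0.053 for Actg2, 0.15 for Tagln and 0.0020 for Myl9 at the medium dose, and -0.047 for Flna at the high dose. With normexp background the change was -0.0086 for Actg2 at the high dose. With the scanner log ratio the change was -0.0058 for Flna at the low dose, and 0.11 for Actg2 and 0.15 for Cnn1 at the medium dose. With the series matrix the change was 0.027 for Actg2 at the medium dose, and -0.017 for Flna at the high dose. Without a slide term the change was 0.015 for Tagln and -0.023 for Flna at the high dose. With slide as a random block the change was -0.010 for Flna at the high dose. With the replicate block the change was 0.056 for Tagln and -0.0036 for Flna at the high dose. Without slide 1 the change was 0.14 for Actg2, 0.30 for Tagln and 0.10 for Myl9 at the medium dose, and 0.051 for Tagln and -0.021 for Flna at the high dose. Without slide 2 the change was -0.018 for Actg2, -0.097 for Tagln and -0.068 for Flna at the low dose, and -0.046 for Actg2, -0.0029 for Vcl and -0.042 for Flna at the high dose. Without slide 3 the change was 0.096 for Actg2, 0.054 for Cnn1 and 0.054 for Myl9 at the medium dose. Within slide 1 the change was -0.30 for Actg2, -0.46 for Tagln and -0.20 for Flna at the low dose, and -0.035 for Actg2 at the high dose. Leaving out 1 array moved Flna from -0.061 to 0.13 and Tagln from -0.047 to 0.20 at the low dose, and Actg2 from -0.16 to 0.10, Tagln from -0.30 to 0.27, Cnn1 from -0.24 to 0.017 and Myl9 from -0.37 to 0.031 at the medium dose, and Vcl from -0.017 to 0.19, Tagln from -0.19 to 0.041, Flna from -0.091 to 0.085 and Actg2 from -0.087 to 0.11 at the high dose. The cause was not tested. No replicate block changed the call of a list gene, and between doses no count of members called moved.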
